A study of Rattus norvegicus with 12 samples.

Results

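The collagen chain genes were the 43 genes whose name in the expression table had the form Col, a type number, a and a chain number, out of 22442 records and 18754 distinct gene names. They carried 51 records, because 6 names stood on more than 1 record, and the record of highest mean was used for each name. Of the 43 genes, 21 reached a mean of 1 FPKM over the 12 libraries and were tested, and 22 did not. FPKM counts sequenced fragments relative to the length of the transcript and the size of the library, so that it can be set side by side between genes of different length. Collagen type I alpha 2 was not among the members, because its 2 records carried another name.

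The libraries came from fibroblast-like synoviocytes (FLS), the fibroblasts of the joint lining, grown to the third passage from male Sprague Dawley rats with adjuvant arthritis (AA), which is induced with complete Freund's adjuvant. Poly(A) RNA was sequenced from 4 groups of 3 libraries each. The FCA group received DMEM alone, and the AT01, AT1 and AT10 groups received the bile acid taurochenodeoxycholic acid (TCDCA) at 0.1, 1 and 10 µM for 12 h. All 4 groups, the control included, were therefore cells of arthritic rats, and no healthy FLS were part of the comparison. The age of the rats, and whether cells of several rats were pooled, are not given in the sources used here. Nor is it stated that the 3 libraries of a group came from separate animals, so that the p-values below measure the spread between these libraries only.

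Collagens are secreted proteins of 3 chains wound into a triple helix, and they form the scaffold of connective tissue. Fibrillar collagens build the banded fibrils of skin, tendon, bone and cartilage, FACIT collagens sit on the surface of those fibrils, and network collagens build basement membranes and other sheets. Fibroblasts are the main source of fibrillar collagen in the synovium. In arthritis FLS are known both for laying down matrix and for releasing proteases that degrade it.

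Promoter sequences were available from RefSeq (rat build GRCr8) for 34 of the 43 genes. Col12a1, Col14a1, Col1a1, Col22a1, Col25a1, Col2a1, Col3a1, Col6a2 and Col9a3 were not matched. The first sequence shown is that of Col6a1, for which every library with TCDCA was below every FCA library, and it covers the 250 bases before the start of the gene (chr20:11905440-11905689, plus strand). The second is the stretch of 76 bases between the starts of Col4a1 and Col4a2, which are read in opposite directions from it and whose levels kept nearly the same ratio in every library (chr16:84885521-84885596, strand of Col4a1). Capitals mark a GC box.
Col6a1: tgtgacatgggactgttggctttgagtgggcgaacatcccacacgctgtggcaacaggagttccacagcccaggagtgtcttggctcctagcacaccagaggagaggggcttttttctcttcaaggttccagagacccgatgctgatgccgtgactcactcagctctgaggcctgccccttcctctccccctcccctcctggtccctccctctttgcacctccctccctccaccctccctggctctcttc
Col4a1-Col4a2: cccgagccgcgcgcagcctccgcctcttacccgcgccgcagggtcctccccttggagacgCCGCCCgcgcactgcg
In the 250 bases before the start, on both strands, the GC box GGGCGG was present in 19 of the 34 members (55.9%) and in 30.5% of 33469 windows of the same length before annotated starts. CCAAT was found in 10 members (29.4%, against 34.0% of all windows) and TATAAA in 3 (8.82%, against 12.9%). A member was counted if any of its windows held the motif, whereas the shares of all windows count each window singly. Col24a1 and Col6a5 had several windows. The Col6a1 window held none of the 3 motifs, which says only that these letters are not in it.

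The FLS expressed few collagen genes strongly and most of them hardly at all. Col3a1 and Col1a1, the major chains of type III and type I collagen, held 55.7% of the FPKM summed over all members, and the 8 most abundant members held 90.6%. There were 6 members with a mean of at least 100 FPKM and 15 with at least 10. At the other end, 17 members had a mean under 0.1 FPKM, although none was at 0 in all 12 libraries. By class, the 10 fibrillar genes held 70.3% of the collagen FPKM and the 6 basement membrane genes 14.8%. Hexagonal network genes held 5.20%, beaded filament genes 4.99%, FACIT genes 2.30%, multiplexin genes 2.24% and transmembrane genes 0.163%. The fibrillar chain collagen type I alpha 2, whose 2 records had means of 452 and 436 FPKM, is not part of these sums.

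**Figure D1:**
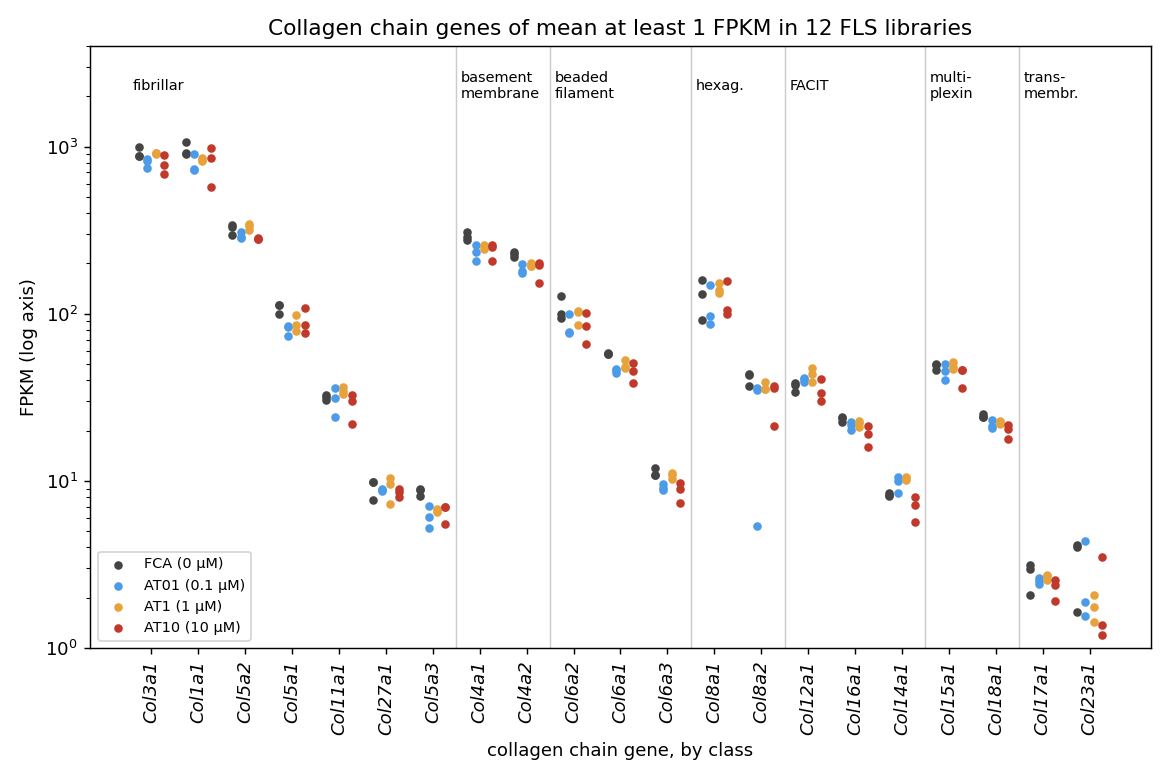
FPKM of the 21 tested collagen chain genes on a log axis, by class and from high to low within a class, with 1 point per library and 1 colour per group. Levels run from 1072 for Col1a1 in 1 FCA library to 1.19 for Col23a1 in 1 AT10 library, and the 5.38 of Col8a2 in 1 AT01 library lies far below its other libraries.

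Among the fibrillar genes, Col3a1 had a mean of 853 FPKM and Col1a1 of 846, and each was above the other in 6 of the 12 libraries, so that their order was not resolved. Among all records they stood at rank 26 and rank 28. Col5a2 followed with 308 FPKM and Col5a1 with 91.6, which are chains of type V collagen, a minor component of type I fibrils that controls their diameter. Col11a1, best known from cartilage fibrils, had 31.2 FPKM, Col27a1 8.88 and Col5a3, a less common type V chain, 6.97. Col11a2 (0.43), Col24a1 (0.077) and Col2a1 (0.0025), the defining collagen of cartilage, were below 1 FPKM.

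Of the basement membrane genes, Col4a1 had a mean of 253 FPKM and Col4a2 of 198, and Col4a1 was above Col4a2 in all 12 libraries. These are the chains of the common type IV network. The chains Col4a3, Col4a4, Col4a5 and Col4a6, which belong to the networks of kidney, lung and other special basement membranes, had means between 0.00083 and 0.607 FPKM. The beaded filaments of type VI collagen surround cells in most connective tissues, and their genes Col6a2, Col6a1 and Col6a3 had 93.1, 49.4 and 9.94 FPKM. Col6a4, Col6a5 and Col6a6 did not exceed 0.01 FPKM in any library. The hexagonal network genes Col8a1 and Col8a2 had 125 and 33.7 FPKM, and Col10a1, the mark of hypertrophic cartilage, had 0.014.

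The FACIT genes Col12a1, Col16a1 and Col14a1 had 38.7, 21.4 and 8.82 FPKM. Among the other FACIT genes, Col22a1 reached 0.69 FPKM and Col9a2 0.508, while Col9a1, Col9a3, Col19a1 and Col20a1 lay under 0.1. The multiplexins Col15a1 and Col18a1, which are proteoglycans of basement membranes, had 46.2 and 22.1 FPKM. A further record annotated as a chain like collagen alpha-1(XV) had 55.0 FPKM, so that reads of Col15a1 may be split between near-identical copies and its level is uncertain. That record is not part of the multiplexin sums. It was at 57.9, 64.2 and 60.9 FPKM in FCA and from 46.6 to 57.3 in the 9 TCDCA libraries. All TCDCA libraries were thus below all FCA libraries for it, whereas Col15a1 overlapped with FCA in AT01 and AT1. The transmembrane collagens Col17a1 and Col23a1 had 2.55 and 2.41 FPKM, and Col13a1 and Col25a1 were under 0.01. Col7a1 of the anchoring fibrils had 0.499 FPKM, and Col26a1 and Col28a1, which belong to none of these classes, had 0.0017 and 0.013.

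The median coefficient of variation over the 12 libraries was 12.9% for the 21 tested members and 15.1% for the 11611 tested records. Among genes of mean at least 10 FPKM it was 12.1% for the 15 members and 11.4% for all 4362 records, so that the members were not below other genes of like level. Of the 21 tested members, 19 had a highest library less than 2 times the lowest. The exceptions were Col8a2 and Col23a1. Col8a2 was at 42.9, 43.7 and 37.1 FPKM in the FCA libraries, at 5.38, 36.0 and 34.8 in AT01, at 39.0, 35.6 and 35.7 in AT1, and at 36.7, 36.1 and 21.3 in AT10. AT01 replicate 1 thus stood alone for this gene, and the group mean of AT01 (25.4 ± 17.4, SD, n = 3) depends on it. Col23a1 was at 1.64, 4.02 and 4.14 FPKM in FCA, at 1.89, 4.34 and 1.55 in AT01, at 1.43, 2.09 and 1.75 in AT1, and at 1.37, 3.51 and 1.19 in AT10. Its higher libraries were spread over 3 groups. A second record of the same name ran from 1.63 to 2.43 FPKM.

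One library stood apart for the collagen genes as a whole. AT10 replicate 3 was the lowest of the 12 libraries for 14 of the 21 tested members, and the lowest of the 3 AT10 libraries for 18. Its collagen genes held 0.800% of the summed FPKM, against 1.02% and 1.13% in the other AT10 libraries. Values of AT10 without this library stand beside the results below.

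The share of all summed FPKM held by the 43 genes was highest in FCA and lower in each TCDCA group. It was 1.07%, 1.17% and 1.13% in the FCA libraries (mean 1.12% ± 0.049, SD, n = 3), and 0.897%, 0.971% and 0.993% in AT01 (0.954% ± 0.051, SD, n = 3). In AT1 it was 1.05%, 1.06% and 1.08% (1.06% ± 0.011, SD, n = 3), and in AT10 it had a mean of 0.985% ± 0.170 (SD, n = 3). The AT01 libraries all lay below the FCA libraries, whereas the AT1 and AT10 libraries overlapped with them. The AT10 mean was 0.138 percentage points below FCA with all libraries and 0.045 points below it without AT10 replicate 3. These shares are a description without a test. In bulk RNA, fewer cells of a type and less RNA per cell cannot be told apart.

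By class, the summed FPKM of the 9 TCDCA libraries was below that of FCA for fibrillar genes by 12.1%, for basement membrane genes by 17.1%, for beaded filament genes by 17.7%, for multiplexins by 8.33% and for hexagonal network genes by 7.49%, and above it by 2.00% for FACIT genes. These differences were, without AT10 replicate 3, 9.85%, 15.4%, 15.4%, 7.78% and 4.86% below FCA in the same order, and 5.30% above it for FACIT genes. Fibrillar genes summed to 2360 ± 174 FPKM in FCA, 2006 ± 116 in AT01, 2216 ± 12.4 in AT1 and 2003 ± 322 in AT10 (SD, n = 3 each), with an AT10 mean of 2178 without replicate 3. Basement membrane genes summed to 518 ± 25.2 FPKM in FCA, 419 ± 36.9 in AT01, 448 ± 10.1 in AT1 and 421 ± 52.9 in AT10 (451 without replicate 3). FACIT genes summed to 69.3 ± 2.91 FPKM in FCA, 73.2 ± 0.312 in AT01, 77.0 ± 4.43 in AT1 and 61.9 ± 8.93 in AT10 (66.7 without replicate 3). Their mean was thus above FCA in AT01 and AT1 and below it in AT10. Col12a1 made up most of this sum, and the FACIT gene Col16a1 had lower means than FCA at each dose. Hexagonal network genes were also above FCA in AT1, with 168 ± 31.4 FPKM in FCA, 137 ± 16.3 in AT01, 179 ± 8.05 in AT1 and 152 ± 37.8 in AT10. The transmembrane genes, which summed to under 10 FPKM in every library, differed by 22.9% in the lower direction with an SD in FCA of 1.97 on a mean of 6.00.

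The question of the comparisons was whether TCDCA at each dose changed the expression of FLS genes, here those of the collagen chains. No collagen chain gene passed an adjusted p under 0.05 in any comparison, and none passed the study's own criterion, which asks for an unadjusted p under 0.05 together with a log2 fold change beyond 1 in either direction. In the limma test across all 11611 records, the adjusted p under 0.05 was passed by 0.172% of records in AT10 against FCA, by 0.0947% each in AT1 and AT01 against FCA, and by 0.0258% in the 9 TCDCA libraries against FCA. Between doses it was passed by 0.258% (AT10 and AT1), 0.0689% (AT10 and AT01) and 0.129% (AT1 and AT01). The study's criterion was met by 0.706%, 0.62% and 0.758% of records in AT10, AT1 and AT01 against FCA and by 0.491% in the 9 libraries against FCA, and between doses by 0.594%, 0.672% and 0.568% in the same order. What differed at an unadjusted p under 0.05 was 13 of the 21 tested members in at least 1 of 7 comparisons, against 31.8% of all tested records, and 36 of 147 gene and comparison pairs in all, against 8.05% of all pairs. Each dose was compared with the same 3 FCA libraries, so that the 3 comparisons are not independent of each other. A fold change below is on the log2(FPKM + 1) scale and is given with its standard error (SE).

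In AT10 against FCA, all 21 tested members had a negative log2 fold change, against 51.7% of all tested records. Their median was -0.29, against -0.01 over all tested records. At an unadjusted p under 0.05, 8 members were lower and 0 higher, against 4.34% of all records lower and 7.54% higher. The smallest adjusted p of a member was 0.288 (limma), and a test in the manner of Ballgown left 5 members at an unadjusted p under 0.05, against 11.3% of all records, and none at an adjusted one. Without AT10 replicate 3, 19 of the 21 were lower, against 53.0% of all tested records, and the median was -0.19. Of the same 8 members, 7 then remained at an unadjusted p under 0.05, Col5a2 being the one lost. The count also changed with the controls left out, to 5 without FCA replicate 1 and 4 without FCA replicate 2 or FCA replicate 3. Over all 11611 records the count was 1379 with all libraries and 1061 without AT10 replicate 3. It was 1043, 1003 and 1411 without FCA replicate 1, 2 and 3 in turn.

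The 8 members were Col18a1, Col6a1, Col16a1, Col5a3, Col5a2, Col6a3, Col4a2 and Col4a1, and for each of them all AT10 libraries were below all FCA libraries. Counting by overlap alone, 11 members lay wholly below FCA and 0 wholly above, against 9.18% and 10.7% of all tested records. Without AT10 replicate 3 these counts were again 11 and 0, against 14.5% and 13.6% of all tested records with 2 AT10 libraries. Col16a1, a FACIT chain, was at 22.5, 23.9 and 24.1 FPKM in FCA and at 21.4, 19.0 and 16.1 in AT10 (log2 fold change -0.32 ± 0.11 SE, adjusted p = 0.375 by limma, and -0.21 ± 0.08 SE without AT10 replicate 3). It was at 22.4, 21.6 and 20.2 FPKM in AT01 and at 21.1, 22.04 and 22.95 in AT1. The AT1 libraries overlapped with FCA, and the AT01 libraries were just below it.
Col18a1, the precursor of endostatin, was at 24.1, 25.2 and 24.1 FPKM in FCA and at 21.5, 20.6 and 17.8 in AT10 (-0.29 ± 0.09 SE, adjusted p = 0.303, and -0.21 ± 0.06 SE without AT10 replicate 3). Its AT01 libraries were at 23.1, 21.2 and 20.8 FPKM and its AT1 libraries at 22.9, 22.4 and 22.02. All 9 TCDCA libraries were thus below all FCA libraries. Col5a2 was at 295, 329 and 340 FPKM in FCA, at 309, 285 and 289 in AT01, at 345, 336 and 317 in AT1 and at 280, 282 and 285 in AT10 (AT10 against FCA -0.18 ± 0.07 SE, adjusted p = 0.396, and -0.19 ± 0.08 SE without AT10 replicate 3). Its AT10 libraries lay close together, below every other library but AT01 replicate 2.

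**Figure D2:**
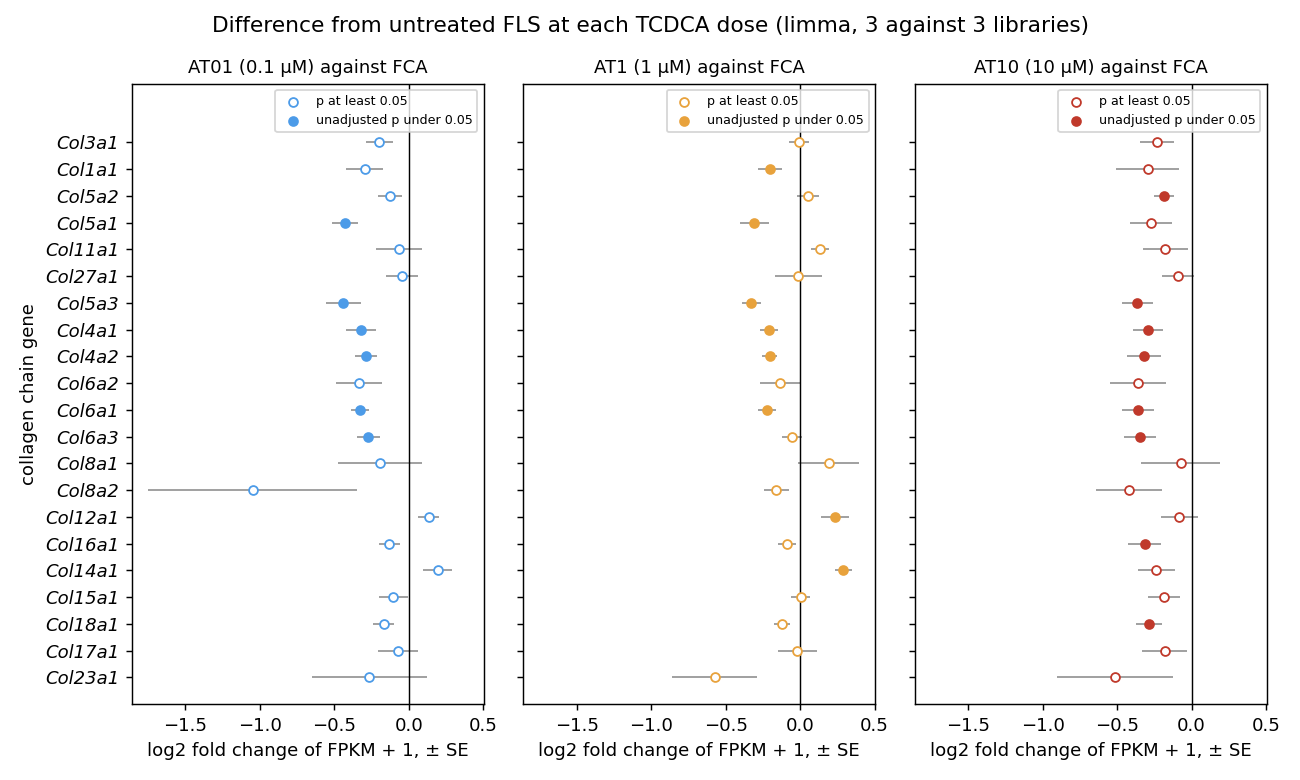
Log2 fold change of FPKM + 1 against FCA at each TCDCA dose for the 21 tested members, with points for the limma estimate, bars for its SE and filled points for an unadjusted p under 0.05. All points lie below 0 in AT10, 19 of 21 in AT01 and 15 of 21 in AT1, against 51.7%, 49.6% and 46.7% of all tested records. None of the members passed an adjusted p under 0.05.

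In AT1 against FCA, 15 of the 21 members were lower and 6 higher, against 46.7% and 53.2% of all tested records. Their median log2 fold change was -0.09, against 0.02 over all tested records. At an unadjusted p under 0.05, 6 were lower (background 5.44% of all records) and 2 higher (5.56%). Those lower were Col6a1, Col5a1, Col5a3, Col1a1, Col4a2 and Col4a1, and those higher were Col14a1 and Col12a1. The smallest adjusted p was 0.315 by limma, and the test in the manner of Ballgown gave 8 members at an unadjusted p under 0.05, against 11% of all records, and 0 at an adjusted one. The count of 8 became 5 without FCA replicate 2 or without AT1 replicate 3. Over all 11611 records it went from 1278 to 832 and 827 in these cases. By overlap, 7 members were wholly below and 3 wholly above FCA, against 10% and 9.87% of all tested records. Col1a1 was at 917, 1072 and 900 FPKM in FCA and at 817, 833 and 853 in AT1 (-0.20 ± 0.08 SE, adjusted p = 0.453). The AT1 libraries were close together, whereas Col1a1 ranged from 721 to 904 FPKM in AT01 and from 571 to 979 in AT10, where it overlapped with FCA.

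In AT01 against FCA, 19 of the 21 members were lower, against 49.6% of all tested records. The median log2 fold change of the 21 was -0.20, against 0.00 over all tested records. At an unadjusted p under 0.05, 6 were lower and 0 higher, against 4.03% and 2.57% of all records. They were Col6a1, Col5a1, Col5a3, Col6a3, Col4a2 and Col4a1, the smallest adjusted p of a member was 0.348 by limma, and the Ballgown-like test gave 7 at an unadjusted p under 0.05, against 7.4% of all records, and 0 at an adjusted one. By overlap, 10 members were wholly below FCA and 1, Col12a1, wholly above, against 8.06% and 5.97% of all tested records.

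When the 9 TCDCA libraries were compared together with FCA, 19 of the 21 members were lower, against 49.3% of all tested records. The median of the 21 was -0.19, against 0.00 over all tested records. At an unadjusted p under 0.05, 7 were lower and 0 higher, against 6.15% and 5.86% of all records. The members were Col18a1, Col6a1, Col5a1, Col5a3, Col6a3, Col4a2 and Col4a1, the smallest adjusted p was 0.241 by limma, and the Ballgown-like test gave 6 at an unadjusted p under 0.05, against 12.4% of all records, and 0 at an adjusted one. For Col18a1, Col6a1, Col5a3, Col4a2 and Col4a1, every TCDCA library was below every FCA library, against 1.90% of all tested records. Without AT10 replicate 3, 17 of 21 members were lower, against 49.0% of all tested records. At an unadjusted p under 0.05 there were then 8 members, against 1265 of all 11611 records. Wholly below FCA were 5, against 2.07% of all tested records.

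Col6a1, an obligate chain of type VI collagen, was at 57.3, 57.5 and 58.2 FPKM in FCA, at 44.3, 46.1 and 46.7 in AT01, at 47.9, 47.3 and 52.8 in AT1 and at 50.8, 45.7 and 38.5 in AT10. The group means were 20.7%, 14.4% and 21.9% below FCA in AT01, AT1 and AT10 (AT10 16.3% without replicate 3), so that the means were not ordered by dose, and every TCDCA library was below every FCA library. Over the 9 TCDCA libraries the log2 fold change was -0.30 ± 0.08 SE (adjusted p = 0.268), and -0.27 ± 0.06 SE without AT10 replicate 3.

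Col5a3 was at 8.89, 8.78 and 8.16 FPKM in FCA, at 5.19, 6.10 and 7.10 in AT01, at 6.63, 6.78 and 6.55 in AT1 and at 7.02, 6.95 and 5.53 in AT10. All TCDCA libraries lay below the lowest FCA library, with group means 28.8%, 22.7% and 24.5% below FCA in AT01, AT1 and AT10 (AT10 18.9% without replicate 3). The pooled log2 fold change was -0.38 ± 0.09 SE, with an adjusted p of 0.241, and -0.35 ± 0.08 SE without AT10 replicate 3. Col5a1 was at 99.99, 112 and 113 FPKM in FCA, at 82.8, 73.4 and 84.5 in AT01, at 86.0, 97.9 and 78.7 in AT1 and at 109, 86.0 and 76.2 in AT10. One AT10 library was inside the range of FCA, and the other 8 TCDCA libraries were below it. Its fold change was -0.43 ± 0.09 SE in AT01 (adjusted p = 0.432) and -0.31 ± 0.10 SE in AT1 (adjusted p = 0.428).

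Col4a1 was at 275, 289 and 308 FPKM in FCA, at 258, 235 and 207 in AT01, at 253, 256 and 244 in AT1 and at 256, 249 and 207 in AT10. Col4a2 was at 218, 227 and 234 FPKM in FCA, at 199, 181 and 176 in AT01, at 194, 201 and 193 in AT1 and at 200.2, 195 and 153 in AT10. For both chains all TCDCA libraries were below all FCA libraries. Pooled over the doses, the log2 fold change was -0.28 ± 0.08 SE for Col4a1 and -0.27 ± 0.08 SE for Col4a2, each with an adjusted p of 0.306. It was, without AT10 replicate 3, -0.25 ± 0.07 SE for Col4a1 and -0.23 ± 0.05 SE for Col4a2. Col6a3 was at 11.9, 10.9 and 10.8 FPKM in FCA, at 9.01, 8.76 and 9.56 in AT01, at 10.9, 10.3 and 11.1 in AT1 and at 9.67, 8.91 and 7.38 in AT10. Here the AT1 libraries overlapped with FCA while the AT01 and AT10 libraries were below it.

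**Figure D3:**
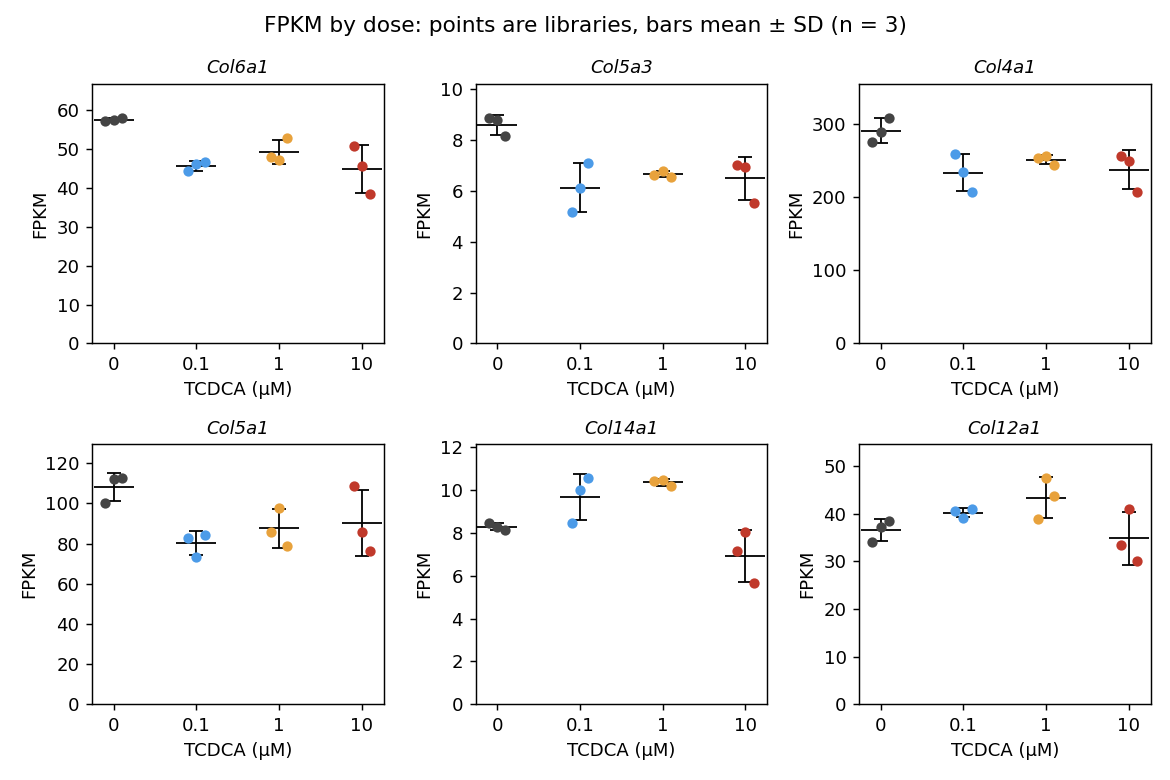
FPKM by TCDCA concentration for 6 members, with points for libraries and bars for mean ± SD (n = 3), on axes that start at 0. Col6a1, Col5a3 and Col4a1 lie below FCA at every dose, 1 AT10 library of Col5a1 reaches the FCA range, and Col14a1 is above FCA in AT1 and below it in AT10.

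Col14a1 and Col12a1, both FACIT genes, lay on the other side of FCA in AT1. The fibrillar gene Col11a1 did so too, at 32.7, 30.3 and 31.7 FPKM in FCA and at 36.3, 33.2 and 34.7 in AT1. Col14a1, which binds fibrils of type I collagen, was at 8.48, 8.28 and 8.13 FPKM in FCA, at 8.48, 10.0 and 10.6 in AT01, at 10.5, 10.5 and 10.2 in AT1 and at 7.14, 8.05 and 5.65 in AT10. The AT1 libraries were all above FCA (0.29 ± 0.06 SE, adjusted p = 0.315) and the AT10 libraries all below it. Col12a1, a FACIT known from tendon and ligament, was at 34.1, 37.3 and 38.5 FPKM in FCA, at 40.6, 39.1 and 41.0 in AT01, at 38.8, 47.4 and 43.7 in AT1 and at 33.4, 40.9 and 30.0 in AT10. Its AT01 and AT1 libraries were all above FCA, and AT10 overlapped with it (AT1 against FCA 0.23 ± 0.09 SE, adjusted p = 0.451).

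Fewer members were at an unadjusted p under 0.05 between the doses. There were 3, 1 and 3 by limma (background 6.46%, 4.97% and 3.43% of all records). The Ballgown-like test gave 2, 0 and 3 (background 6.61%, 5.12% and 3.62%), and 0 were at an adjusted p under 0.05 by either. In AT10 against AT1, 19 of the 21 were lower in AT10, against 52.8% of all tested records. Col14a1, Col5a2 and Col6a3 were so at an unadjusted p under 0.05, against 3.74% of all records. Col14a1 had the largest of these fold changes (-0.53 ± 0.12 SE, adjusted p = 0.541, and -0.41 ± 0.08 SE without AT10 replicate 3). Col5a2 differed by -0.24 ± 0.05 SE (adjusted p = 0.537) and Col6a3 by -0.29 ± 0.10 SE (adjusted p = 0.748), and without AT10 replicate 3 by -0.25 and -0.19. The count of 3 became 6 without AT10 replicate 2 and stayed at 3 without AT10 replicate 3. In the latter case 15 of the 21 were lower, against 54.1% of all tested records. Over all 11611 records the count went from 750 to 642 and 747 without AT10 replicate 2 and 3 in turn.
In AT10 against AT01, 1 member, Col14a1, was lower at an unadjusted p under 0.05 (background 2.82%). Of the 21, 15 had a negative fold change, against 50.0% of all tested records. Without AT10 replicate 3, 9 of 21 did, against 50.6%, and none was at an unadjusted p under 0.05. That count of 1 was also 0 without AT10 replicate 1, AT01 replicate 2 or AT01 replicate 3, and 2 without AT10 replicate 2. Over all 11611 records the count was 577 with all libraries and 567 without AT10 replicate 3. It was 450, 497, 1074 and 440 without AT10 replicate 1, AT01 replicate 2, AT01 replicate 3 and AT10 replicate 2 in turn. In AT1 against AT01, 20 of the 21 members were higher in AT1, against 55.9% of all tested records, and Col3a1, Col5a2 and Col6a3 were so at an unadjusted p under 0.05, against 1.72% of all records. Their adjusted p was 1.00 each (limma). The count fell to 0 without AT01 replicate 2 or AT1 replicate 1, and to 1 without AT1 replicate 2 or AT1 replicate 3. Over all 11611 records it went from 398 to 436, 308, 395 and 294 in these cases, in the same order. Col3a1 was at 880, 998 and 876 FPKM in FCA, at 741, 815 and 845 in AT01, at 905, 911 and 915 in AT1 and at 781, 891 and 683 in AT10. The AT01 libraries were all below the FCA and AT1 libraries.

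Over the 4 groups together, the moderated F test left 10 of the 21 members at an unadjusted p under 0.05, against 8.57% of all tested records, and 0 at an adjusted p under 0.05, against 0.0431%, with 0.402 as the smallest adjusted p of a member, that of Col14a1. A Ballgown-like F test gave 9, against 9.16% of all records, and 0. The count of 10 was 4 without FCA replicate 1, 5 without FCA replicate 2 or FCA replicate 3, and 6 without AT01 replicate 2, AT1 replicate 1 or AT1 replicate 3. Over all 11611 records it went from 995 to 798, 716, 1027, 952, 795 and 831 in these cases, in the same order. By group mean, 15 of the 21 tested members were highest in FCA and 6 in AT1, and 14 were lowest in AT10, 6 in AT01, 1 in AT1 and 0 in FCA. Without AT10 replicate 3, 7 were lowest in AT10, 12 in AT01, 1 in AT1 and 1 in FCA, so that the position of AT10 as the lowest group rests on that library.

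**Figure D4:**
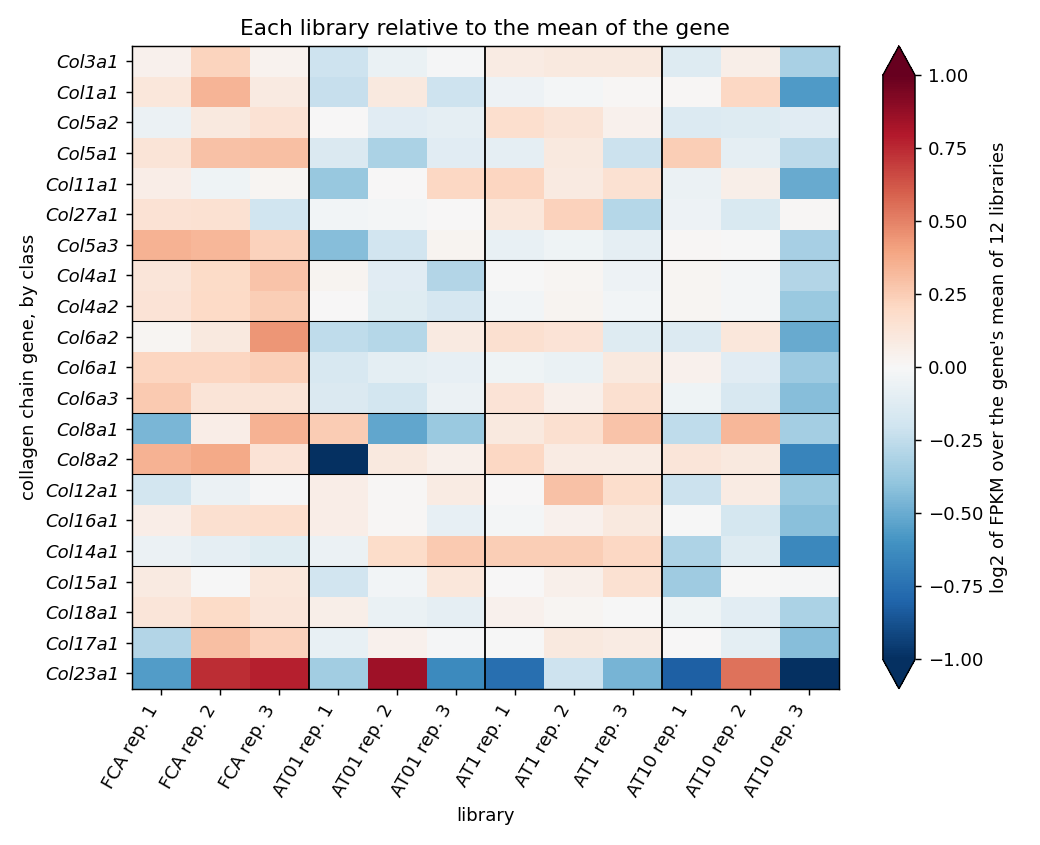
Log2 of FPKM over the mean of the gene for the 21 tested members (rows, by class) in the 12 libraries (columns), with red above and blue below that mean and the colour scale ending at 1 in each direction. The FCA columns are mostly red, AT10 replicate 3 is mostly blue, and the single values that stand out are Col8a2 in AT01 replicate 1 and the spread of Col23a1.

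Chains that assemble into the same molecule were compared by their ratio within each library, which does not depend on the scaling between libraries. The ratio of Col4a1 to Col4a2 was the most constant, at 1.28 with a coefficient of variation of 3.30%, against 11.7% and 11.2% for the chains themselves. Type IV collagen contains 2 chains of alpha 1 and 1 of alpha 2. The ratio of Col1a1 to collagen type I alpha 2 was 0.949 with a coefficient of variation of 7.39%. The alpha 2 chain stood on 2 near-identical records of mean 452 and 436 FPKM, which were summed for the ratio, and reads may be split or counted in both, so that the level of this ratio is uncertain.
Col6a1 was at 0.539 of Col6a2 (13.0%) and Col6a3 at 0.201 of Col6a1 (6.49%), although the 3 chains occur in equal number in type VI collagen. The ratio of Col5a1 to Col5a2 was 0.298 (14.7%). It was between 0.331 and 0.341 in the FCA libraries and between 0.248 and 0.388 in the TCDCA libraries, 8 of which were below all FCA libraries. The log2 difference of -0.25 had a two-sided exact permutation p of 0.077, and 0.386 after Benjamini-Hochberg adjustment over the 5 ratios. The other 4 ratios had adjusted exact p-values of 0.739 to 0.855.

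**Figure D5:**
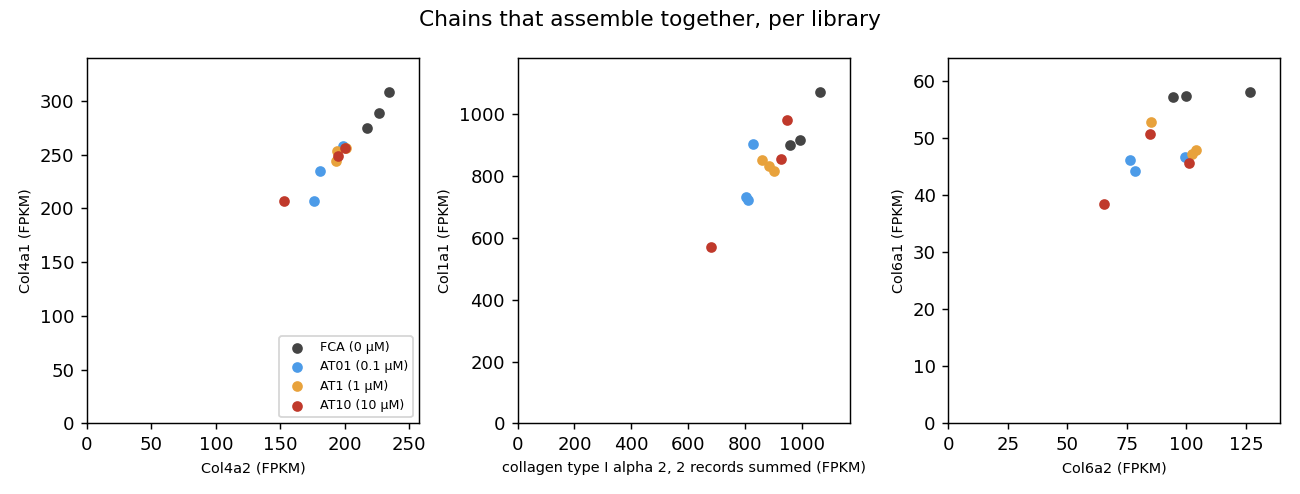
FPKM of partner chains against each other, with 1 point per library, 1 colour per group and axes from 0. The points of Col4a1 against Col4a2 lie close to a line through the origin, with FCA at the upper end and AT10 replicate 3 and AT01 replicate 3 at the lower end, while Col6a1 against Col6a2 scatters more.

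The genes that process collagen were described from 5 further lists, and none of their genes passed an adjusted p under 0.05 against FCA in any comparison. Of the enzymes and chaperones that hydroxylate, glycosylate and fold the chains, 14 of 18 were tested, and over the 9 TCDCA libraries 3 were lower and 0 higher at an unadjusted p under 0.05, against 6.15% and 5.86% of all records. The 2 of smallest p were P3h1, a prolyl 3-hydroxylase (-0.38 ± 0.14 SE, adjusted p = 0.346), and Sparc, a collagen-binding protein of the matrix (-0.13 ± 0.06 SE, adjusted p = 0.380). In AT10 the fold change of P3h1 was -0.54 ± 0.10 SE (adjusted p = 0.146).
Of the genes for procollagen secretion, 4 of 5 were tested and 0 were at an unadjusted p under 0.05 over the 9 libraries, Sec23a (0.11 ± 0.07 SE) and Sec24d (-0.07 ± 0.05 SE) being nearest. Of those for propeptide removal and crosslinking, 8 of 12 were tested, with 1 higher and 1 lower. These were Tll1, a procollagen C-proteinase of the tolloid family (0.24 ± 0.08 SE, adjusted p = 0.331), and Loxl1, a lysyl oxidase (-0.20 ± 0.08 SE, adjusted p = 0.374). Of the collagen receptors, 5 of 10 were tested, with 1 higher and 2 lower, and the 2 of smallest p were the discoidin domain receptor Ddr1 (-0.23 ± 0.07 SE, adjusted p = 0.311) and the endocytic receptor Mrc2 (-0.22 ± 0.07 SE, adjusted p = 0.311). Of the genes for collagen breakdown, 9 of 11 were tested and 0 were at an unadjusted p under 0.05, the nearest being the protease inhibitor Timp3 (-0.18 ± 0.09 SE) and the membrane protease Mmp16 (-0.28 ± 0.17 SE). Summed FPKM of the breakdown genes ran from 3017 to 3078 in FCA, from 3081 to 3360 in AT01, from 3028 to 3244 in AT1 and from 2758 to 2893 in AT10.

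The label of the cells was checked against marker genes. Of 11 markers of synovial fibroblasts, 10 were tested, and Vim (2658 FPKM), Dcn (1273) and Prg4 (32.5), which encodes lubricin of the joint lining, were present in every library. Their summed level was 8370 to 8615 FPKM in FCA, 8538 to 9213 in AT01, 8242 to 8929 in AT1 and 7212 to 8114 in AT10. The AT10 sums lay wholly below the FCA sums. Over the 9 TCDCA libraries 3 of the 10 were higher and 1 lower at an unadjusted p under 0.05, against 5.86% and 6.15% of all records. Those of smallest p, Lum (0.30 ± 0.07 SE, adjusted p = 0.257) and Fap (0.30 ± 0.08 SE, adjusted p = 0.295), lay above FCA, opposite to most collagen genes. The list as a whole did not, since the median log2 fold change of its 10 tested genes was -0.06. Of 5 endothelial markers, 4 had a record, and their sum did not exceed 0.21 FPKM in any library. Epithelial markers did not exceed 0.57 FPKM. Of the macrophage markers, Csf1r and Adgre1 had means of 0.157 and 0.0067 FPKM, whereas Cd14 had 13.8. The 8 macrophage markers, 5 with a record, summed to between 5.75 and 22.04 FPKM. Chondrocyte markers summed to 8.04 to 10.1 FPKM in FCA, 5.72 to 8.29 in AT01, 6.46 to 8.23 in AT1 and 4.75 to 8.54 in AT10, so that each dose reached below FCA, like the collagen genes, and overlapped with it. Of the 3 tested, Acan, the core protein of aggrecan, was lower over the 9 TCDCA libraries at an unadjusted p under 0.05 (-0.31 ± 0.11 SE, adjusted p = 0.347).
Of the list for smooth muscle and myofibroblasts, Acta2 alone was lower at an unadjusted p under 0.05 over the 9 TCDCA libraries, as 7 collagen genes were. Of its 5 genes, 4 had a record, and their sum was 307 to 410 FPKM in FCA, 223 to 288 in AT01, 252 to 290.1 in AT1 and 159 to 303 in AT10, so that all AT01, AT1 and AT10 libraries were below all FCA libraries. Acta2, the smooth muscle actin of activated fibroblasts, led it with a mean of 245 FPKM and a log2 fold change of -0.54 ± 0.19 SE over the 9 TCDCA libraries (adjusted p = 0.347). The median log2 fold change of the 4 genes was 0.0012, and Des was at 0.05 ± 0.25 SE, so that the lower sum is that of Acta2. The Schwann cell list, in effect S100b, summed to 13.4 to 33.5 FPKM in FCA, 19.2 to 55.9 in AT01, 44.4 to 59.7 in AT1 and 19.0 to 40.7 in AT10, so that the AT1 libraries alone were all above FCA. Osteoblast markers summed to between 4.36 and 6.5 FPKM over the 12 libraries and adipocyte markers to between 35.5 and 52.2. The part of such cells or cell states in the collagen differences was not tested.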

How the data were processed

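The authors trimmed the reads with cutadapt, aligned them with HISAT2 and assembled them with StringTie. According to the methods of the study, StringTie calculated the FPKM and Ballgown was used for differential expression. Both are named there for estimating transcript levels. The tools listed with the samples include edgeR and not Ballgown. The genome build is not given in the sources used here. The deposited values are FPKM, to 2 decimals, for 12 libraries without read counts per gene. The number of reads behind a value and its counting error are therefore unknown. The study does list the total reads of each library, which were not used here.

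Here, log2(FPKM + 1) of the 11611 records of mean at least 1 FPKM was fitted in R 4.3.3 by limma 3.58.1, using lmFit and eBayes with a trend of the variance, with the libraries of the groups compared, and p-values were adjusted over all these records by the Benjamini-Hochberg method. Ratios were tested with two-sided exact permutation tests in Python 3.11.15. The fits were tested on simulated data. The members, the lists of collagen classes, processing genes and markers, and the tests were chosen with earlier results of these data known. Named with values were members of mean at least 10 FPKM, members at an unadjusted p under 0.05 in a comparison, and the 2 genes of smallest p in each processing list. Col8a2, Col23a1 and the low members outside this rule were named after their values were seen. In the text, fold changes of single genes are given only at an unadjusted p under 0.05 with all libraries. The exceptions are the processing lists and the marker gene Des. Values without AT10 replicate 3 are given whatever their p. The labels and the methods of the study name different sequencers. Alternatives are listed in the closing section.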

Additional observations from a re-analysis of the deposited data

Results flagged for a closer look

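Col14a1 was singled out because all 3 AT1 libraries (10.2 to 10.5 FPKM) lay above every FCA library (8.13 to 8.48) and all 3 AT10 libraries (5.65 to 8.05) lay below every FCA library. The difference between the doses, tested directly as AT10 against AT1, was -0.53 on the log2 scale (limma, adjusted p = 0.541), and -0.41 without AT10 replicate 3. The difference did not pass the correction. The rule that singled out Col14a1 already places every AT10 library below every AT1 library. The direct test reuses those values and adds no separate support.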

How the results depend on the processing

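The count of collagen chain genes at an adjusted p under 0.05, and that under the criterion of the study, was 0 in every comparison under each alternative run. These were 1 fit over the 12 libraries, a Ballgown-style F test, no filter or one at a mean of 10 FPKM, 0.1 as pseudocount, scaling by the median of ratios, values summed over the records of a gene name, the replicate block, records at 2 levels left out, and each library left out. The smallest adjusted p of a member over these was 0.113. All 36 fold changes at an unadjusted p under 0.05 kept their sign under all 570 alternatives computed for them. This was largely fixed beforehand and is no measure of robustness. The single fit, the Ballgown-style test, the replicate block, the filters and the removal of records leave a fold change as it is. The 36 were also chosen by their p in these same libraries.

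Counts at an unadjusted p under 0.05 moved more. Leaving out each library in turn gave 4 to 9 for AT10 against FCA (8 with all libraries), 5 to 7 for AT1 against FCA (8), 5 to 8 for AT01 against FCA (6), 2 to 6 for AT10 against AT1 (3), 0 to 2 for AT10 against AT01 (1), 0 to 3 for AT1 against AT01 (3), 5 to 8 for the 9 TCDCA libraries (7) and 4 to 10 for the F test over 4 groups (10). Counts over all 11611 records moved too. Against FCA they ran from 1003 to 1446 for AT10 (1379 with all libraries), 827 to 1406 for AT1 (1278) and 537 to 1030 for AT01 (766). Between doses they ran from 615 to 747 (750), 440 to 1074 (577) and 294 to 514 (398) in the same order. For the 9 TCDCA libraries they ran from 764 to 1829 (1394), and for the F test from 716 to 1286 (995). Where a group is left with 2 libraries, its spread is shared with the other group. The Ballgown-style test gave 5 for AT10 against FCA and 0 for AT10 against AT01, against 1310 and 595 of 11611 records. With 1 fit over the 12 libraries, AT1 against FCA had 4 and AT10 against AT1 had 6, against 1173 and 763 records. Without a filter AT10 against AT1 had 5, against 1346 of 21956 records, with more genes tested. With a mean of at least 10 FPKM fewer genes were tested. AT10 against AT1 then had 1 and AT10 against AT01 had 0, against 312 and 230 of 4362 records.

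Same-numbered libraries of different groups did not deviate together (mean correlation of deviations -0.0016, from -0.105 to 0.094), so that the replicate numbers are not taken as pairs. With the replicate block the counts were 6, 8, 7, 3, 0, 1 and 7 in the 7 comparisons in the order above and 8 in the F test. Over all 11611 records they were 1238, 1125, 638, 564, 586, 332 and 1442, and 1061 in the F test.

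Without a filter the 22 members of lowest level enter, and the median log2 fold change was -0.072 for AT10, 0.0 for AT1 (19 higher and 21 lower, -0.09 with the filter), -0.026 for AT01 and -0.020 for the 9 libraries against FCA, and -0.035 for AT10 against AT1. Over all 21956 records then tested, 49.9% were higher and 45.1% lower in AT1 against FCA. The collagen share without AT10 replicate 3 differed by -0.045 percentage points from FCA, 0.015 from AT1 and 0.124 from AT01, where the values with all libraries were -0.138, -0.077 and 0.032. Leaving out each library in turn, these ran from -0.212 to -0.045, from -0.152 to 0.015 and from -0.043 to 0.124. Of the ratios, the log2 difference changed sign without FCA replicate 2 (0.020) or AT10 replicate 3 (0.0031) for Col1a1 to collagen type I alpha 2, without FCA replicate 3 (0.013) or AT01 replicate 3 (0.011) for Col4a1 to Col4a2, and without FCA replicate 1 (0.049) or FCA replicate 2 (0.011) for Col6a1 to Col6a2, where the values with all libraries were -0.018, -0.0047 and -0.031. Leaving out each library in turn, these ran from -0.045 to 0.020, from -0.016 to 0.013 and from -0.153 to 0.049. The cause of these changes was not tested.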

Other observations

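Among the collagen genes too low to be tested, Col22a1, a FACIT of tissue junctions, was at 1.55, 1.64 and 0.65 FPKM in the AT01 libraries and between 0.10 and 0.92 in the other 9. Col10a1 was listed at 0.08, 0.05 and 0.04 FPKM in the AT1 libraries and at 0 in the other 9. Both genes were singled out after their values were seen, and at these levels the reads behind a value are unknown.

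The records of collagen type I alpha 2, which the naming rule left out, were at 508, 548 and 493 FPKM in FCA, at 413, 422 and 403 in AT01, at 449, 452 and 434 in AT1 and at 477, 482 and 349 in AT10 for the more abundant of the 2. All TCDCA libraries were below all FCA libraries for this record.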
